A study of Mus musculus with 4 samples.

Results

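The oogenesin, Omt2 and Oosp genes are 9 oocyte-expressed mouse genes in 3 small families: Oog1, Oog2, Oog3 and Oog4, Omt2a and Omt2b, and Oosp1, Oosp2 and Oosp3. They were matched by gene symbol to the authors' scaled read table, in which 9 of 18714 gene rows were theirs, 1 row per symbol. RNA was sequenced from pools of 3 mouse embryos at the 2-cell stage, with 2 libraries from embryos kept in 500 nM dTAG-13 and 2 libraries from embryos kept in 0.01% DMSO, the vehicle. All embryos were of an outbred ICR background and carried the Nelfb dTAG/dTAG genotype, in the vehicle group too. Zygotes came from natural matings between homozygous parents and were kept in KSOM embryo medium for 30 hours. The NELF-B protein that carries the tag is part of the NELF complex, which keeps RNA polymerase II paused near the start of genes, and dTAG-13 recruits a ubiquitin ligase to the tagged protein.

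Growing oocytes store large amounts of mRNA, and much of that mRNA is degraded in the mouse between meiotic maturation and the end of the 2-cell stage, while the embryo's own genome starts to be transcribed. A transcript measured at the 2-cell stage can therefore be left from the oocyte, newly made, or both, and a bulk library does not separate them. The oogenesins belong to the PRAME family of leucine-rich repeat proteins, which has been duplicated many times in the mouse and is expressed mainly in germ cells and early embryos. Omt2a and Omt2b were named as transcripts of oocyte maturation, and the Oosp genes encode oocyte-secreted proteins.

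Gene rows held 38112685 and 33897568 reads with dTAG-13 and 18923479 and 16522506 with vehicle, and 1 read equalled 0.622 and 0.697 scaled reads with dTAG-13 and 1.20 and 1.62 with vehicle. The part of this difference in depth in the results was not tested. The tagged gene, Nelfb, had 63.4 and 35.6 scaled reads with dTAG-13 and 182.5 and 69.8 with vehicle (log2 fold change -1.23 ± 0.86, SE, n = 2 libraries per group, limma adjusted p = 0.343), and because the degrader acts on protein this mRNA does not check the labels. All 7 markers of the 2-cell stage were rows of the table and summed to 38142 to 51411 scaled reads with dTAG-13 and 113239 to 124542 with vehicle, while 4 of 5 markers of later blastocyst lineages summed to 78.4 to 232 and 284 to 412. Of markers of other cells, 3 of 9 cumulus and granulosa genes summed to 423 to 462 with dTAG-13 and 344 to 937 with vehicle, 4 of 7 sperm genes to 27.2 to 29.9 and 97.4 to 159.7, 3 of 5 oviduct genes to 401 to 439 and 336 to 787, and 2 of 5 blood genes to 154 to 202 and 1062 to 1066. Among these, Ptx3 of cumulus cells, Akap4 of sperm and Ptprc of blood cells were at 0 in both dTAG-13 libraries. Most of the cumulus and granulosa sum came from Tnfaip6, which averaged 425 scaled reads with dTAG-13 and 565 with vehicle. Most of the blood sum came from Hba-a1, which averaged 178 with dTAG-13 and 1051 with vehicle. The part of such cells in the results was not tested.

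In the dTAG-13 libraries 8 of the 9 genes were lower at a Benjamini-Hochberg adjusted p under 0.05 by limma over all 15978 genes tested, and 0 were higher, whereas 9.79% of all genes tested were lower and 8.94% were higher. No gene of the 9 was higher at an unadjusted p under 0.05 either, and 8 were lower and 0 higher by edgeR and by DESeq2, where edgeR placed 7.17% of all genes lower and 6.42% higher and DESeq2 placed 16.7% lower and 15.1% higher. Levels with dTAG-13 ranged between 5.96% of the vehicle mean for Oosp3 and 38.0% for Oosp2, the gene that did not pass. Both dTAG-13 libraries lay below both vehicle libraries for all 9 genes, an arrangement found in 34.5% of all genes tested, with the opposite one in 32.2%. The median log2 fold change of the 9 genes was -2.16, against -0.10 for all genes. In pooled embryos, fewer embryos that carry a transcript and less of it in each embryo cannot be told apart. With 1 library left out 0 of the 9 genes passed by limma; without either dTAG-13 library 0 of all 15978 genes passed, so those fits could call none of the 9. By unadjusted p under 0.05, lower genes numbered 4 of the 9 without dTAG-13 replicate 1 (13.6% of all genes), 4 without dTAG-13 replicate 2 (15.5%), 9 without vehicle replicate 1 (16.4%) and 5 without vehicle replicate 2 (13.4%). The median of the 9 in these fits was -2.16, -2.39, -2.50 and -1.98. The values also depend on the scaling of the libraries, as described after the single families. Scaling on other oocyte transcripts, also given for each family, by construction brings genes that changed like those transcripts near 0.

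**Figure D1:**
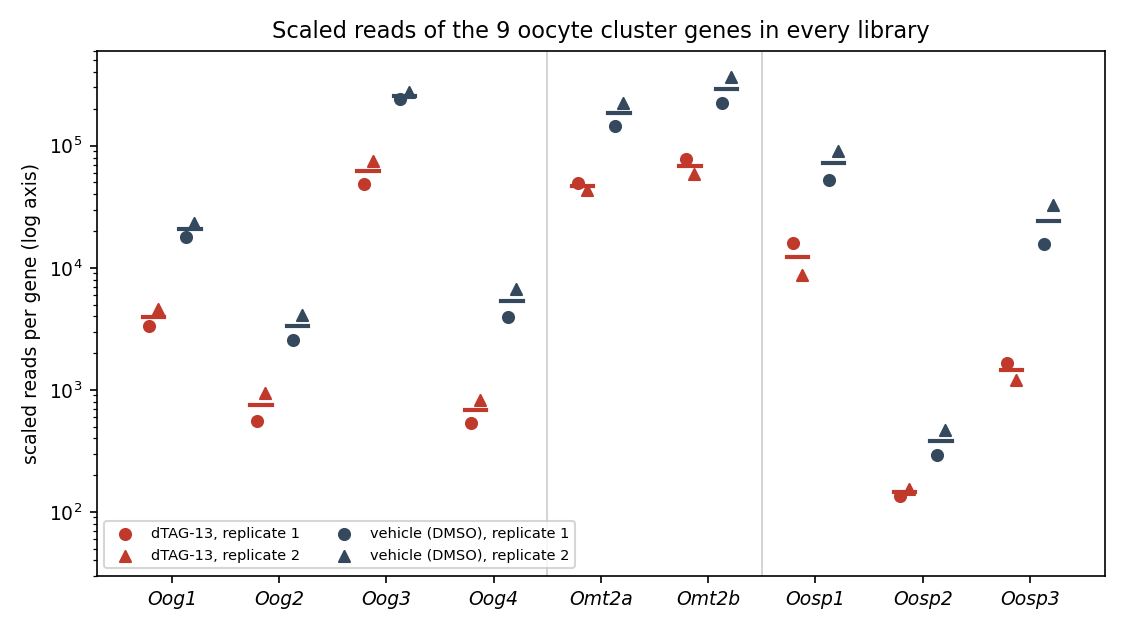
Scaled reads of the 9 genes (log axis) in each library, dTAG-13 in red to the left and vehicle in dark blue to the right of each gene, with circles for replicate 1, triangles for replicate 2 and a bar at the mean of 2 libraries. Both dTAG-13 libraries sit below both vehicle libraries for every gene under the authors' scaling; with libraries scaled on other oocyte transcripts the fold changes of Oog2, Oog3, Omt2a, Omt2b and Oosp2 lie between 0.017 and 0.81 and do not pass the test.

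The promoters of the 4 oogenesins are shown because they are alike over their whole length and hold the same short words. The order of the words is the same except for CTGAAAAT in Oog3. All of them lie closer to the RefSeq start site in Oog1 than in Oog2 and Oog4. RefSeq (GRCm38.p6) gives a promoter for 8 of the 9 genes. Over the 250 bases upstream of the start site, pairs of oogenesin promoters were 77.4% to 84.6% identical over aligned bases, against 62.3% for Omt2a and Omt2b and 60.4% for Oosp1 and Oosp2. The 170 bases that end just before the RefSeq start site are printed 5′ to 3′ on the gene's own strand, and capitals mark 6 runs of at least 8 bases that all 4 promoters share. They lie at chr12:87602495-87602664 (plus strand) for Oog1, chr4:144190547-144190716 (plus strand) for Oog2, chr4:144162652-144162821 (minus strand) for Oog3 and chr4:143450325-143450494 (minus strand) for Oog4.
Oog1: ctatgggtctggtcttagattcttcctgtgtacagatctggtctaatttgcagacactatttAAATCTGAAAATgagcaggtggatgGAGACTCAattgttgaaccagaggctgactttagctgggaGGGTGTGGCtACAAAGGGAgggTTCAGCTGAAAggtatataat
Oog2: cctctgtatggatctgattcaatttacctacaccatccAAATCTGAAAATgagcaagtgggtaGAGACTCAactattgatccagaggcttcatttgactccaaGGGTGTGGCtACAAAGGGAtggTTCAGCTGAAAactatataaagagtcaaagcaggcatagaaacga
Oog3: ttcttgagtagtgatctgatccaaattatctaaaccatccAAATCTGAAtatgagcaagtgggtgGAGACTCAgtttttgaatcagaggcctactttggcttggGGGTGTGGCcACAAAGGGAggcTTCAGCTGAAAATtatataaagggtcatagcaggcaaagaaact
Oog4: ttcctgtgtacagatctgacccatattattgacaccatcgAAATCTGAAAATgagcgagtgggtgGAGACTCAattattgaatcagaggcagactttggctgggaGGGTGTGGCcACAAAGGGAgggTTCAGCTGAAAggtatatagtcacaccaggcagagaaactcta
The longest run, TTCAGCTGAAA, has 11 bases and begins 21 bases upstream of the RefSeq start site in Oog1, 45 in Oog2, 44 in Oog3 and 43 in Oog4. The gene coordinates given below are those of GENCODE M21, which starts Oog1 at chr12:87602688 and Oog3 at chr4:144162663. These differ from the RefSeq starts, so the distances depend on the annotation. The longest run holds a match to CANNTG, the word bound by basic helix-loop-helix proteins. On either strand this run occurs in 14 of 32851 RefSeq promoter windows of 250 bases (0.0426%). CANNTG itself is in all 8 promoters searched and in 66.2% of all promoters. TATAAA is in the windows of Oog2 and Oog3 (12.4% of all promoters), TAATTG in those of Oog3, Oog4 and Omt2b (7.17%) and TAATTA in 0 of the 8 (4.84%), each searched on both strands. The run CTGAAAAT begins 104, 128 and 126 bases upstream in Oog1, Oog2 and Oog4 but 39 bases upstream in Oog3, where it overlaps the longest run. These matches are descriptions of letters and were not tested as binding sites.

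All 4 oogenesins were lower with dTAG-13 under the authors' scaling, with log2 fold changes between -2.96 and -2.08, although those of Oog2 and Oog3 were 0.017 ± 0.39 and 0.10 ± 0.25 when libraries were scaled on other oocyte transcripts. Oog3 (ENSMUSG00000050810.8), a leucine-rich repeat protein gene of 4 exons at chr4:144157557-144162663 in GRCm38 on the minus strand, had 48906 and 75499.6 scaled reads with dTAG-13, compared with 239857 and 273745 with vehicle. Its 2 vehicle libraries lay close together and both were above the dTAG-13 libraries, by 3.18-fold between the nearest pair. The log2 fold change was -2.08 ± 0.26 (SE, n = 2 per group; limma adjusted p = 0.0219), but under quantile normalization it was -1.30 and did not pass (limma adjusted p = 0.0612). Oog1 (ENSMUSG00000096576.1), the oogenesin described first and the only one of the 4 on another chromosome (chr12:87602688-87608850, plus strand), had 3334 and 4590.2 scaled reads with dTAG-13 and 17926 and 23432 with vehicle. Its groups did not overlap, and it fell by 2.39 ± 0.28 on the log2 scale (limma adjusted p = 0.0219). Oog4 (ENSMUSG00000047799.15, chr4:143437164-143450324, minus strand) had 536 and 821 scaled reads with dTAG-13 and 3951 and 6746 with vehicle. It had the lowest fold change of the family, -2.96 ± 0.41 (limma adjusted p = 0.0230), and its 2 vehicle libraries differed by 1.71-fold. Oog2 (ENSMUSG00000066030.6, chr4:144190719-144196934, plus strand) had 559 and 935 scaled reads with dTAG-13 and 2543 and 4089 with vehicle. Its fold change of -2.16 ± 0.43 passed with the largest adjusted p of the 8 called genes (limma adjusted p = 0.0342). For all 4 oogenesins replicate 1 was the lower library in both groups.

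Oogenesin reads can be shared with near copies, so the split among them is uncertain. Of all stretches of 50 bases in the GENCODE M21 transcripts of Oog1, 89.0% also occur in another gene, chiefly Gm2042 (85.8%) and Gm10436 (58.6%). The share was 33.4% for Oog2, mostly with Gm13084 (30.1%), 19.7% for Oog3, mostly with Gm4350 (18.9%), and 0.707% for Oog4. Near copies of Oog1 were lower too: Gm2042 had 848 and 1174 scaled reads with dTAG-13 and 5076 and 7040.1 with vehicle (log2 fold change -2.58 ± 0.33, limma adjusted p = 0.0219), and Gm10436 had a log2 fold change of -2.38 ± 0.31 (limma adjusted p = 0.0222). Gm13084, the copy of Oog2, had 1582 and 1972 scaled reads with dTAG-13 and 4734 and 9206 with vehicle (-1.90 ± 0.40, limma adjusted p = 0.0380). In coding sequence the 4 oogenesins were 74.6% to 81.4% identical to one another.

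Omt2a and Omt2b, a pair of neighbouring genes on chromosome 9 that face away from each other, were both lower with dTAG-13 under the authors' scaling, although their fold changes were 0.22 ± 0.31 and 0.10 ± 0.36 when libraries were scaled on other oocyte transcripts. Omt2b (ENSMUSG00000038750.12, chr9:78327589-78329620, plus strand) had 77457 and 59199.6 scaled reads with dTAG-13 and 222571 and 365347 with vehicle. The groups did not overlap, and vehicle replicate 2 stood 1.64-fold above vehicle replicate 1. The log2 fold change was -2.07 ± 0.30 (limma adjusted p = 0.0233). Omt2a (ENSMUSG00000066463.12, chr9:78311972-78314796, minus strand) had 49898 and 43123 scaled reads with dTAG-13 and 145999 and 222510.1 with vehicle, a log2 fold change of -1.96 ± 0.26 (limma adjusted p = 0.0224). Under quantile normalization both were still lower, with smaller log2 fold changes of -1.17 for Omt2b and -1.37 for Omt2a. For both genes replicate 1 was the higher dTAG-13 library and the lower vehicle library. Their coding sequences were 81.1% identical over 291 aligned bases, and 37.0% of the 50-base stretches of Omt2a and 35.2% of those of Omt2b occur in the other gene.

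The Oosp genes on chromosome 19 had the widest range of fold changes of the 3 families: under the authors' scaling Oosp3 and Oosp1 were lower with dTAG-13, and Oosp2 did not pass and was at 0.81 ± 0.53 when libraries were scaled on other oocyte transcripts. Oosp3 (ENSMUSG00000055933.13, chr19:11697055-11711874, plus strand, 6 exons), which encodes a relative of oocyte-secreted protein 1, had 1671 and 1212 scaled reads with dTAG-13, compared with 15595 and 32757 with vehicle. The nearest libraries of the groups were 9.33-fold apart, although the 2 vehicle libraries themselves differed by 2.10-fold. The log2 fold change of -3.99 ± 0.43 (limma adjusted p = 0.0219) was the lowest of the 9 genes and lower than that of all but 7.13% of the genes tested. Oosp1 (ENSMUSG00000041857.10, chr19:11667460-11691150, minus strand), which encodes oocyte-secreted protein 1, had 15997 and 8705 scaled reads with dTAG-13 and 52349.8 and 91305 with vehicle. Its groups did not overlap, its replicates differed by 1.84-fold with dTAG-13 and by 1.74-fold with vehicle, and its log2 fold change was -2.55 ± 0.42 (limma adjusted p = 0.0262). Oosp2 (ENSMUSG00000055895.6, chr19:11647279-11660559, minus strand), which encodes oocyte-secreted protein 2, had 136 and 154 scaled reads with dTAG-13 and 292 and 471 with vehicle. These values do not overlap, but the log2 fold change of -1.35 ± 0.53 did not pass (limma adjusted p = 0.127). Oosp1 and Oosp2 share 0 stretches of 50 bases with any other gene and Oosp3 shares 1.46% of its own.

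In the authors' deposited table the same 8 genes were lower at an adjusted p under 0.05, and 0 were higher, against 8.47% lower and 7.56% higher of the 16281 genes listed there. The authors' deposited log2 ratios of treated over DMSO were lowest for Oosp3 (-4.07, adjusted p = 6.3e-21) and Oog4 (-2.98, adjusted p = 2.6e-07). In the authors' deposited table Oosp2 had a log2 ratio of -1.40 with an adjusted p of 0.560.

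The fold changes were relative to what was held equal between libraries. Under the authors' size factors the log2 fold changes of all genes had their median at -0.10. Scaling on 30 other oocyte transcripts moved that median to 1.96 and shifted the 9 genes upwards with it. Those 30 had a median log2 fold change of -2.11 under the authors' scaling, so genes near that value land near 0 by construction. That scaling uses a geometric mean of scaled reads + 1, in which scarce transcripts weigh as much as abundant ones. Among the scarce ones, Sohlh1 averaged 0 scaled reads with dTAG-13 and 33.0 with vehicle, and Mos averaged 56.7 and 55.3. Their part in the size of the shift was not tested. Under that scaling limma placed 345 genes (2.16%) lower and 6465 (40.5%) higher, in place of 1565 and 1428. Of the 9 genes, Oosp3 then was lower (-1.81, limma adjusted p = 0.0300), the other 8 did not pass, and the median of the 9 was 0.017. Dividing each library by a factor shifts genes almost equally, so the order of genes hardly changes. For that reason all 9 values were below the median of all genes under both scalings, with Oosp2 the highest at 0.81 under the second. Scaling on the mitochondrially encoded genes, which took 6.99% and 5.76% of gene reads with dTAG-13 and 8.12% and 10.9% with vehicle, moved the median of all genes to 0.50 and left 0 of all 15978 genes past the adjusted threshold. All 9 genes kept negative fold changes under it, with a median of -1.53, and 8 were lower at an unadjusted p under 0.05 (12.3% of all genes). As a share of all reads in genes, a measure that uses no size factor, the 9 genes together took 0.837% and 0.822% with dTAG-13 and 3.09% and 3.80% with vehicle.

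**Figure D2:**
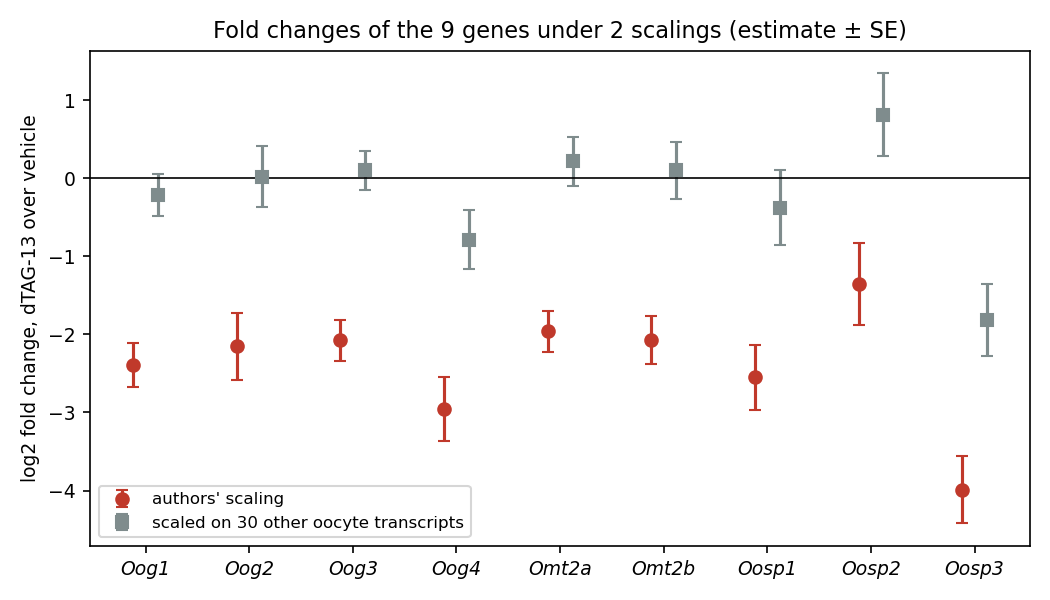
Log2 fold changes of dTAG-13 over vehicle (estimate ± SE from limma, 2 libraries per group) for the 9 genes, with the authors' scaling in red and with libraries scaled on 30 other oocyte transcripts in grey. Oosp3 is lowest under both (-3.99 and -1.81) and Oosp2 highest under both (-1.35 and 0.81), an order that rescaling whole libraries hardly changes. Under the second scaling Oog1, Oog2, Oog3, Omt2a, Omt2b and Oosp1 lie within 1 SE of 0.

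Ratios between 2 genes of the same library do not depend on the scaling. Omt2a over Omt2b was 0.644 and 0.728 with dTAG-13 and 0.656 and 0.609 with vehicle, so the groups overlapped. Oog2 over Oog3 also overlapped, and its means were 0.0119 with dTAG-13 and 0.0128 with vehicle. Oosp3 over Oosp1 was 0.104 and 0.139 with dTAG-13 and 0.298 and 0.359 with vehicle, a difference of -1.44 on the log2 scale. Oog4 over Oog3 was 0.0110 and 0.0109 with dTAG-13 and 0.0165 and 0.0246 with vehicle, a difference of -0.88. Both of these ratios were lower in each dTAG-13 library than in each vehicle library. Oosp2 over Oosp1 went the other way, with 0.00848 and 0.0177 with dTAG-13 and 0.00557 and 0.00516 with vehicle. Oog1 over Oog3 was 0.0682 and 0.0608 with dTAG-13 and 0.0747 and 0.0856 with vehicle. For each of these 4 ratios without overlap the exact two-sided permutation p was 0.333, the smallest that 2 libraries against 2 allow (0.476 with Benjamini-Hochberg adjustment over the 10 ratios computed), so this test cannot reach 0.05 here.

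**Figure D3:**
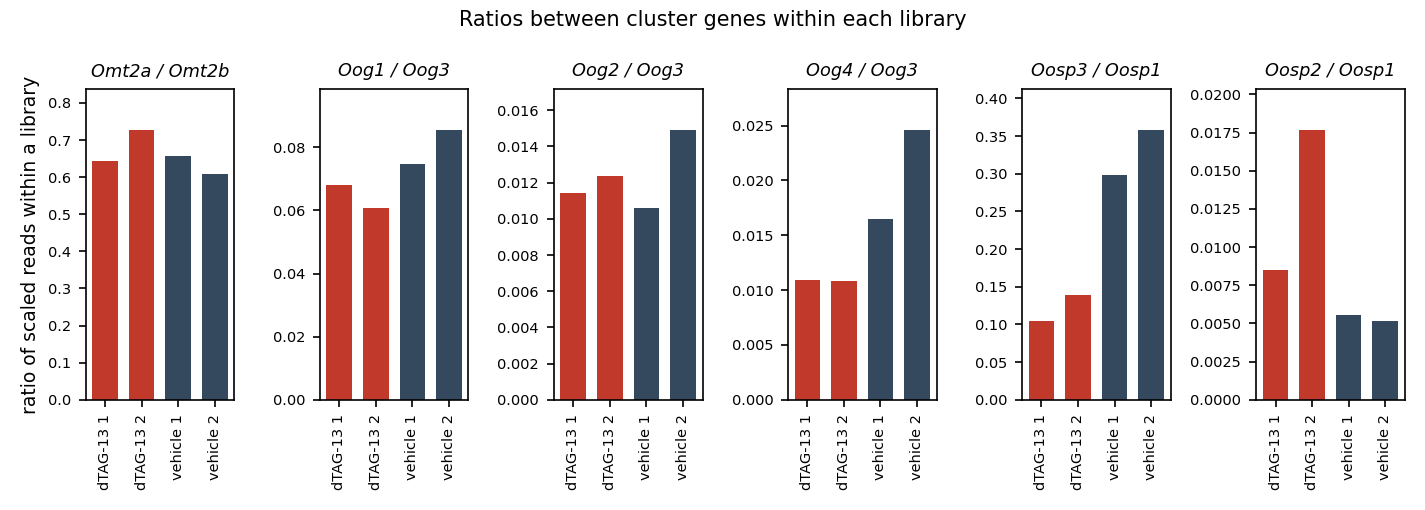
Ratios of scaled reads between genes of the same family within each library, 1 bar per library, the 2 dTAG-13 libraries in red to the left and the 2 vehicle libraries in dark blue to the right, each panel with its own axis from 0. Omt2a over Omt2b lies between 0.609 and 0.728 in all 4 libraries, whereas Oosp3 over Oosp1 is 0.104 and 0.139 with dTAG-13 and 0.298 and 0.359 with vehicle.

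Levels were compared between genes as RPKM, a gene's reads over its exon length in kb and over the library's reads in genes. With vehicle the order was Omt2b, Oog3, Omt2a, Oosp1, Oosp3, Oog1, Oog4, Oog2 and Oosp2, and the order of the means was the same with dTAG-13. Omt2b averaged 1867 ± 349 RPKM with dTAG-13 and 7573 ± 1751 with vehicle (mean ± SD, n = 2 libraries each). Oosp2, at the other end, averaged 9.03 ± 0.83 RPKM with dTAG-13 and 22.4 ± 4.9 RPKM with vehicle. Oosp3 averaged 74.0 ± 16.5 RPKM with dTAG-13, next to Oog1 with 68.3 ± 15.4, whereas with vehicle it averaged 1159 ± 460 and Oog1 averaged 339 ± 24. With vehicle, Oog3 and Omt2a overlapped and the other neighbours in the order did not. With dTAG-13, Omt2b overlapped Oog3, Oog3 overlapped Omt2a, Oosp3 overlapped Oog1, Oog4 overlapped Oog2 and Oog2 overlapped Oosp2.

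**Figure D4:**
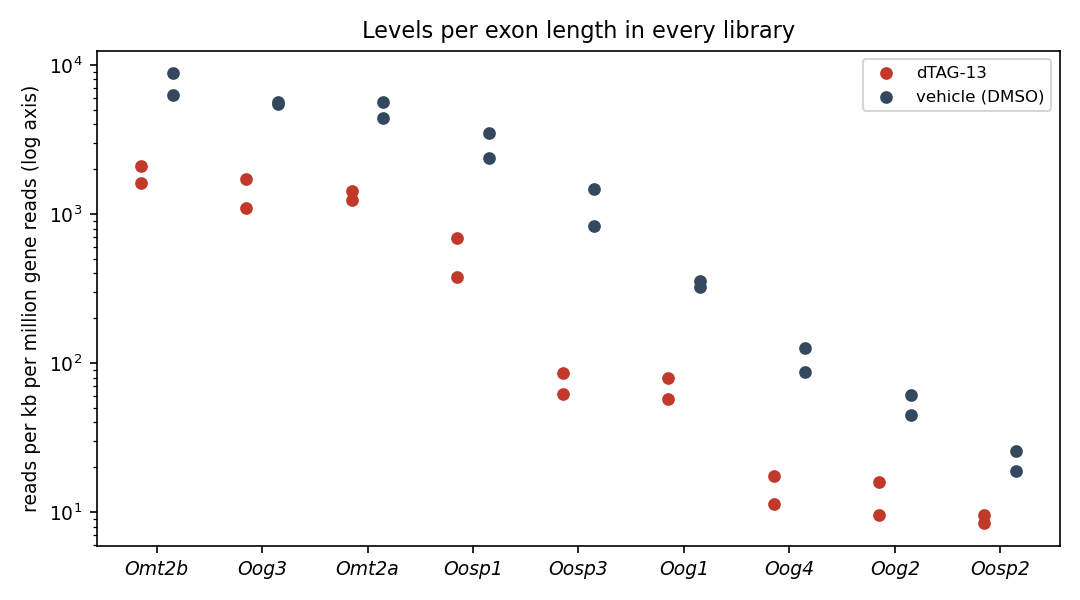
RPKM over exon length (log axis) of the 9 genes in each library, in the order of the vehicle means, with dTAG-13 in red to the left and vehicle in dark blue to the right. The order of the group means is the same in both groups, between 1867 for Omt2b and 9.03 for Oosp2 with dTAG-13 and between 7573 and 22.4 with vehicle. Levels of genes that share stretches with other genes are uncertain.

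The oogenesins were set beside their relatives, the 33 other rows whose symbol or synonym is that of a PRAME-like gene, of which 32 were tested. With dTAG-13, 12 of the 32 were lower and 4 were higher by limma, and 16 did not pass. Of all genes tested, 9.79% were lower and 8.94% higher. The median log2 fold change of the relatives was -1.60, against -2.27 for the 4 oogenesins. With libraries scaled on other oocyte transcripts it turned to 0.58, with 1 relative lower and 10 higher. The median of all genes was 1.96 under that scaling, with 2.16% of genes lower and 40.5% higher. Pramel7, a PRAME-like gene active in preimplantation embryos, had 18001 and 17996 scaled reads with dTAG-13 and 2142 and 1505 with vehicle. It rose by 3.32 ± 0.27 on the log2 scale (limma adjusted p = 0.0219), opposite to the oogenesins. Pramel6, Pramel4 and D5Ertd577e also rose, by 2.20, 2.18 and 1.44 (limma adjusted p = 0.0227, 0.0292 and 0.0426). Gm13083, Gm13023 and C87977 fell, with log2 fold changes of -2.90, -2.74 and -2.54 (limma adjusted p = 0.0219 for each), and the last 2 share 50-base stretches with Oog1. Without vehicle replicate 1 or vehicle replicate 2 limma placed 1 relative lower, and without dTAG-13 replicate 1 or dTAG-13 replicate 2 it placed 0 lower, with 14 and 12 lower at an unadjusted p under 0.05.

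**Figure D5:**
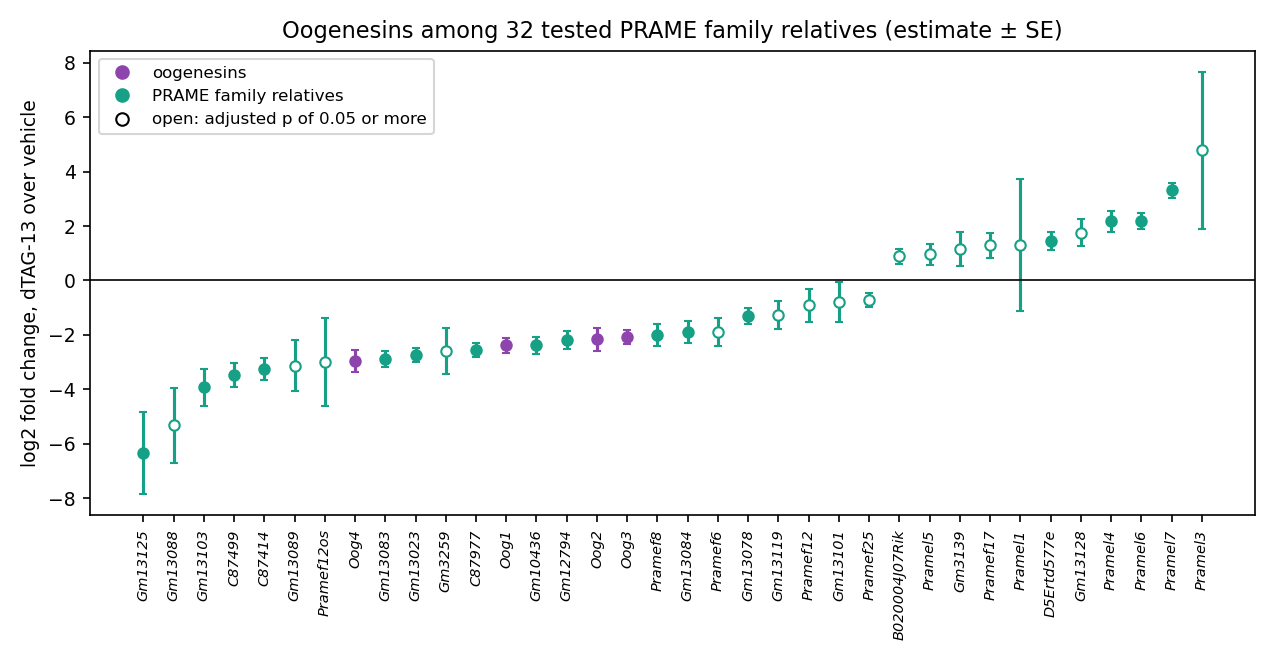
Log2 fold changes of dTAG-13 over vehicle (estimate ± SE from limma, 2 libraries per group, authors' scaling) for the 4 oogenesins in purple and 32 PRAME family relatives in green, in order; open points had an adjusted p of 0.05 or more. The oogenesins lie among the relatives between -2.96 and -2.08, while Pramel7, Pramel6, Pramel4 and D5Ertd577e lie above 0. With libraries scaled on other oocyte transcripts the median of the relatives turns from -1.60 to 0.58 and that of all genes from -0.10 to 1.96.

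The promoter words of the oogenesins were also found outside the 4 genes. All 6 shared runs occur in 6 promoter windows, those of the oogenesins, Gm2042 and Gm13084. Besides these, C87499 and Gm13089 hold the 11-base run with 4 and 3 of the 6 runs, and Kcnj13, which encodes a potassium channel, holds the 11-base run alone. The other 5 of the 14 windows belong to Gm13403, with 2 of the runs, and to Gm32920, Gm34439 (2 windows) and Lcn15, with the 11-base run alone; these genes are not rows of the table used here. C87499 had 422 and 856 scaled reads with dTAG-13 and 5774 and 7907 with vehicle and fell by 3.49 ± 0.44 on the log2 scale (limma adjusted p = 0.0219). Gm13089 had a log2 fold change of -3.13 ± 0.93 and did not pass (limma adjusted p = 0.0729), and neither did Kcnj13 (1.30 ± 1.33, limma adjusted p = 0.495). The first 4 of these 5 genes are near relatives of the oogenesins, and this set was chosen after sequences and values were seen, so its values are a description.

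Other transcripts of the oocyte were lower in most cases. Of 30, 18 were lower and 0 higher by limma, against 9.79% lower and 8.94% higher of all genes tested. At an unadjusted limma p under 0.05, 2 of the 30 and 2978 of all 15978 genes were higher. By edgeR 0 of the 30 were higher and by DESeq2 2 were, against 6.42% and 15.1% of all genes. The median log2 fold change of the 30 was -2.11 and by construction moved to near 0 (0.06) when libraries were scaled on them. Without vehicle replicate 1 limma placed 5 of the 30 lower and without vehicle replicate 2 it placed 2 lower, while without either dTAG-13 library it placed 0 lower, with 17 and 18 lower at an unadjusted p under 0.05. Rfpl4, which encodes an oocyte RING finger protein, fell by 5.04 ± 0.34 on the log2 scale, and Bcl2l10, of the Bcl2 family, fell by 4.70 ± 0.32. Btg4, an adaptor of the deadenylase that removes maternal mRNA, fell by 3.76 ± 0.29, and H1foo, the oocyte linker histone, fell by 3.49 ± 0.30 (limma adjusted p = 0.0219 for all 4). Relative to the median of these 30 transcripts, Oosp3 was lower by a log2 difference of -1.88 and Oog4 by -0.85. Omt2b, Oog3 and Oog2 lay within 0.05 of that median, with differences of 0.04, 0.03 and -0.05, and Oosp2 lay 0.76 above it.

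Genes whose start lies within 250 kb of one of the 9 genes were described next. Of 45 tested neighbours, 12 were lower and 3 higher by limma, with a median log2 fold change of -1.0 that turned to 1.16 with libraries scaled on other oocyte transcripts. Around the oogenesins 9 of 29 neighbours were lower and 2 higher, around Omt2a and Omt2b 2 of 11 were lower and 1 higher, and around the Oosp genes 1 of 5 was lower, beside 9.79% lower and 8.94% higher of all genes tested. The neighbours of the oogenesins include PRAME family relatives already counted above, among them Gm13083, C87977 and Pramel4. Without such relatives, 5 of 15 neighbours of the oogenesins were lower and 1 higher. Ooep, near the Omt2 genes and part of the subcortical maternal complex of the egg, had 249 and 285 scaled reads with dTAG-13 and 3485 and 5410.3 with vehicle. It fell by 4.02 ± 0.37 on the log2 scale (limma adjusted p = 0.0219). Dppa5a, in the same stretch of chromosome 9 and a marker of pluripotent cells, had 9893 and 14102 scaled reads with dTAG-13 and 5764 and 4977 with vehicle and rose by 1.14 ± 0.27 (limma adjusted p = 0.0482). Gm8300, Gm13083 and C87977 near the oogenesins fell, with log2 fold changes of -1.98, -2.90 and -2.54 (limma adjusted p = 0.0219 for each). Pramel4 and Alkbh1, which encodes a nucleic acid demethylase, rose near the oogenesins, Alkbh1 by 2.37 ± 0.43 (limma adjusted p = 0.0306). The number of lower neighbours was 3 without vehicle replicate 1, 2 without vehicle replicate 2 and 0 without either dTAG-13 library, with 14 lower at an unadjusted p under 0.05 in both of those fits.

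The genes with the profile nearest to the median profile of the 9 genes, by Euclidean distance between centred log2 values over 4 libraries, were Sh3glb1, Cyb5r4 and Hsbp1, at distances of 0.0957, 0.103 and 0.119. Hsbp1, which encodes a heat shock factor binding protein, had 2284 and 2610.3 scaled reads with dTAG-13 and 10732 and 15789 with vehicle. Cyb5r4, which encodes a cytochrome b5 reductase, had 414 and 482 scaled reads with dTAG-13 and 1876 and 2625 with vehicle. Sh3glb1, which encodes endophilin B1, had 154 and 183 with dTAG-13 and 745 and 1028 with vehicle. Like the 9 genes, all 3 were higher in vehicle replicate 2 than in vehicle replicate 1, which follows from how they were picked.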

How the data were processed

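Polyadenylated RNA from 4 pools of 3 embryos was sequenced with an unstranded SMART-seq kit, per the labels' protocols. The submitters' processing notes name bcl2fastq, Picard, HTSeq and DESeq with build mm10; the aligner is not given in the sources used here, nor is the annotation release. The deposited signal values are gene reads over a size factor of each library, computed by the authors; 100% of values were whole multiples of 1 read (tolerance 1e-04), and these reads were recovered for the count tests. The authors' deposited table gives a p-value, an adjusted p-value and a log2 ratio per gene.

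Values were compared as log2(scaled reads + 1) for genes with a mean of at least 10 (15978 genes), with limma 3.58.1 (lmFit, eBayes with trend, two-sided, R 4.3.3); fold changes are on that scale. A gene was called lower or higher at an adjusted p under 0.05. Alternatives were edgeR 4.0.16 and DESeq2 1.42.0 on recovered reads (edgeR called 1146 genes lower and 1026 higher), other pseudocounts, filters, scalings, a replicate block and leaving out each library. The fit was tested on simulated data. Lengths are exon unions of GENCODE M21 in place of the coding lengths first planned, since no protein table was used here. Identities are from global alignments with Biopython 1.88. Groups and replicate numbers come from the labels, which do not say that pools of a group had separate parents, so p-values reflect spread between pools, which may be technical.

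The 9 genes, the other lists and the tests were chosen with earlier results of these data known. Besides the 9 genes, the text names the 4 genes of each other list with the smallest p, those called in the opposite direction and the 3 most alike; copies and promoter-word carriers were named by sequence.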

Additional observations from a re-analysis of the deposited data

How the results depend on the processing

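The 8 calls among the 9 genes were kept in number (8) with edgeR, DESeq2, both other pseudocounts, both other filters and TMM scaling. Of all 15978 genes tested, 1475 were lower with a pseudocount of 0.5, 1962 with a pseudocount of 10 and 1592 with TMM scaling. Without a filter 1344 of 18714 genes were lower, and with a mean of at least 50 the number was 1891 of 11246. With the replicate number as a block 8 of the 9 genes were lower, with 1832 genes lower and 1855 higher in all; the numbers were not used as pairs, since deviations of same-numbered libraries correlated at -0.014 and there were 2 pairs. DESeq2 placed 2662 genes lower and 2414 higher.

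Without a variance trend 0 of the 9 genes passed, with 380 genes lower and 209 higher in all. At an unadjusted limma p under 0.05, 8 of the 9 genes and 2935 of all 15978 genes tested were lower in that fit. At the adjusted threshold 1 PRAME relative, 3 other oocyte transcripts and 3 neighbours were lower. The fold changes were the same (Oog1 -2.39, Oog2 -2.16, Oog3 -2.08, Oog4 -2.96, Omt2a -1.96, Omt2b -2.07, Oosp1 -2.55, Oosp3 -3.99). Under quantile normalization Oog3 did not pass (-1.30, limma adjusted p = 0.0612), and Omt2b and Omt2a passed with smaller fold changes of -1.17 and -1.37.

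With libraries scaled on the other oocyte transcripts 1 of the 9 genes was lower, with 345 genes lower and 6465 higher, 1 PRAME relative, 7 other oocyte transcripts and 2 neighbours lower. The median of the 9 genes was 0.017, the value of Oog2, with Oog3 at 0.10, Omt2a at 0.22, Omt2b at 0.10, Oosp2 at 0.81, Oog1 at -0.21, Oog4 at -0.79 and Oosp1 at -0.38. With libraries scaled on the mitochondrial genes 0 genes passed in either direction by limma, with 1966 lower and 3640.0 higher at an unadjusted p under 0.05, and the median of the 9 genes was -1.53 (Oog1 -1.76, Oog2 -1.53, Oog3 -1.45, Oog4 -2.33, Omt2a -1.33, Omt2b -1.44, Oosp1 -1.92, Oosp3 -3.36). The cause of these differences between scalings was not tested.

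Each fit without 1 library leaves one group with 1 pool, which is assumed to vary like the others. In these fits 0 of the 9 genes (unadjusted, 4 to 9), 0 to 773 genes lower, 0 to 360 higher, and 0 to 1 PRAME relatives, 0 to 5 other oocyte transcripts and 0 to 3 neighbours lower. Fold changes ranged between -2.62 and -2.16 for Oog1, -2.53 and -1.78 for Oog2, -2.39 and -1.76 for Oog3, -3.34 and -2.57 for Oog4, -2.26 and -1.65 for Omt2a, -2.43 and -1.72 for Omt2b, -2.99 and -2.11 for Oosp1, and -4.52 and -3.45 for Oosp3, with all 9 genes negative in all 4 fits. A count of 0 allows up to 3 reads, which bears on the markers at 0; the 9 genes had reads in every library, at least 218 of them, and the number of pools, 2 per group, limits the precision.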
